A study of Mus musculus with 15 samples.

Results

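The E2F and DP transcription factors are the 8 E2F genes, E2f1 to E2f8, and the DP genes Tfdp1 and Tfdp2, which encode their dimerization partners. All 10 were measured, by 12 probe sets, and they form 10 of the 19937 genes that carry a single gene symbol. E2f3 and Tfdp1 had 2 probe sets each, and a gene with more than 1 was represented by the probe set with the highest mean over the 15 arrays.

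The study measured gene expression on Affymetrix Mouse Gene 1.0 ST arrays in myeloid progenitors of pre-leukemic Cebpa mutant mice, in 5 groups of 3 arrays. Granulocyte-macrophage progenitors (GMPs) and the less mature pre-granulocyte-macrophage progenitors (preGMs) were sorted from marrow of female C57BL/6 mice 3 weeks after the conditional knockout. The GMP fl/BRM2 group had the genotype cebpa fl/BRM2; Mx1Cre, the GMP fl/p30 group cebpa fl/p30; Mx1Cre, and the GMP fl/+ control group cebpa fl/+; Mx1Cre. The preGM fl/p30 group had the genotype cebpa fl/p30; Mx1Cre, and the preGM +/+ control group is labelled cebpa +/+:Mx1Ce. Every group thus carried the Mx1 transgene, whose Cre recombinase is driven by an interferon-inducible promoter and is not limited to myeloid progenitors. The preGM controls had no floxed allele while the GMP controls had 1, so the p30 comparisons of the 2 stages have controls of different genotype, and stage and floxed allele cannot be told apart between the control groups. By the animal numbers in the labels, the same 3 mice gave the preGM and the GMP arrays of fl/p30. The sources used here state neither the ages of the mice nor the share of cells in which the floxed allele was deleted.

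E2F proteins bind DNA at the promoters of genes for DNA replication and cell division, mostly as dimers with a DP protein. E2f1, E2f2 and E2f3 are the activators of the family, E2f4 and E2f5 repress through the pocket proteins p107 and p130, E2f6 represses through Polycomb-type complexes without a pocket protein, and E2f7 and E2f8 are atypical repressors that bind DNA without a DP partner. C/EBPα, the product of Cebpa, stops myeloid progenitors from dividing as they mature, in part by repressing E2F activity. The p30 isoform lacks the amino-terminal part of the protein, and BRM2 is a basic region mutant known for impaired repression of E2F. Whether p30 keeps that repression was not tested here.

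Several E2F genes are themselves E2F targets, so the sequence before their transcription starts was read from RefSeq (GRCm38.p6), which held 12 windows for 8 of the 10 genes. Each window ran from 250 bases before a start to 50 bases after it, and both strands were searched. An E2F octamer (TTTCCCGC, TTTCGCGC, TTTGCCGC or TTTGGCGC) was found in 5 of the 12 windows, of 4 genes, against 2.26% of all 32851 windows of the same length. The looser heptamer, each of these octamers without its first T and so contained in them, was found in 6 windows of 5 genes, against 9.57% of all windows. The letters TTTGAA of the cell cycle homology region (CHR) were in 3 windows, against 17.9%, and CCAAT was in 5, against 37.4%. The windows of a gene overlap or share the gene, so these counts are a description. The upstream windows of E2f7 and E2f6 are shown because both genes fell in the fl/p30 preGMs, while the E2f7 window holds E2F and CCAAT letters and the E2f6 window holds none of the motifs searched. All 250 upstream bases are printed for E2f7, and for E2f6 only the 194 that lie before the span of its RefSeq models, since one of those begins within the window. Capitals mark matches to an E2F heptamer or octamer or to CCAAT on either strand, and the sequences are on the plus strand.
E2f7 upstream, chr10:110745189-110745438: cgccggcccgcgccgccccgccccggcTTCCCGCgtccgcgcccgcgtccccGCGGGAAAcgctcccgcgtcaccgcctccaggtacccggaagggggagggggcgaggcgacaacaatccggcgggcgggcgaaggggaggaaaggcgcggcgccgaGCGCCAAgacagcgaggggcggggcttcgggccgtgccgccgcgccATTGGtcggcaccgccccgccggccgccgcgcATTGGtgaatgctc
E2f6 upstream, chr12:16810715-16810908: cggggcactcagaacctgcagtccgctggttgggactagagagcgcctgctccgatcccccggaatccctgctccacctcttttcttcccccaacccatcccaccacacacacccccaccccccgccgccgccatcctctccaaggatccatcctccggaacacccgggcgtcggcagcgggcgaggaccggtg

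The E2F matches of the other genes are shown as short sites, on the strand of each gene, with the match in capitals, so that their spacing from the start can be compared. In E2f8 the match began 111 bases before the start and overlapped a CCAAT box read on the other strand, in E2f3 the octamer began 11 bases before, with a further heptamer 19 bases after, in Tfdp1 43 and 96 bases before its 2 annotated starts, and in E2f2 40 bases after.
E2f8 site, chr7:48881690-48881718: agaggcgcggaTTGGCGCgcggggccccg
E2f3 site, chr13:29986056-29986085: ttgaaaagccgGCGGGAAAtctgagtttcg
Tfdp1 site, chr8:13338697-13338726: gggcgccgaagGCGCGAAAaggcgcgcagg
E2f2 site, chr4:136172302-136172323: gcggcatatagTTTGGCGCtaa
The windows of E2f1, E2f6 and Tfdp2 held no E2F heptamer. For E2f1, E2f8 and Tfdp2, however, the windows lay inside the span of the gene's RefSeq models. The bases before the outermost start of these genes were therefore not searched, and no absence of E2F letters there is shown. A match is a string of letters and not a measured binding site, and the arrays hold no binding data.

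Values are log2 expression values, so that a difference of 1 is a doubling, and differences are given as the mutant or later stage minus its control with their standard error (SE). A gene was called where limma's p, adjusted by Benjamini-Hochberg over all 19937 genes of a comparison, was under 0.05. Counts at an unadjusted p under 0.05 stand without the share of all genes, so they are a description. Arrays have no read depth, and 3 arrays a group limit the precision. Pooled over all genes as a root mean square, the SD within a group was 0.195 in GMP fl/BRM2, 0.269 in GMP fl/p30, 0.319 in GMP fl/+, 0.211 in preGM fl/p30 and 0.165 in preGM +/+. Replicate 1 of both fl/p30 groups, from the same mouse, had the lowest levels of cell cycle genes in its group, so values are also given without both arrays of that mouse. Cebpa itself rose in GMP fl/p30 (difference 0.69 ± 0.18, adjusted p = 0.0367), but the position of its probes against the deletion and the mutations is unknown, so its level checks no label.

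In preGMs the p30 genotype went with less mRNA of the repressor E2Fs E2f6, E2f7 and E2f8, and in GMPs with less E2f4. All 4 calls were lost without both arrays of the replicate 1 fl/p30 mouse, with adjusted p-values of 0.0716 for E2f6, 0.189 for E2f7, 0.058 for E2f8 and 0.149 for E2f4. In GMP fl/BRM2, the allele described as impaired in E2F repression, no E2F or DP gene passed the test against GMP fl/+. Of the 10 genes, 0 were called in GMP fl/BRM2 against GMP fl/+, where 2.53% of all genes were called (1.89% higher and 0.642% lower), and 2 had an unadjusted p under 0.05 (E2f4 and Tfdp2). In GMP fl/p30 against GMP fl/+, 0 of the 10 rose and 1 fell, where 6.06% of all genes were called, 4.69% higher and 1.37% lower. In preGM fl/p30 against preGM +/+, 0 rose and 3 fell, where 1.68% of all genes were called, 0.647% higher and 1.03% lower. The median difference over the 10 genes was -0.17 in GMP fl/BRM2, -0.20 in GMP fl/p30 and -0.20 in preGM fl/p30, beside medians over all genes of -0.02, -0.04 and 0.03. Without both arrays of that mouse it was -0.12 in GMP fl/p30, beside -0.06 over all genes, and -0.16 in preGM fl/p30, beside 0.01. Both GMP mutants are set against the same 3 control arrays, so their differences are not independent of each other. These are bulk samples, in which fewer cells of a type and less RNA per cell cannot be told apart. The p-values rest on 1 spread a gene, pooled over the 5 groups of 3 animals. The fl/p30 arrays of both stages enter as independent, though they come from the same 3 mice.

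**Figure D1:**
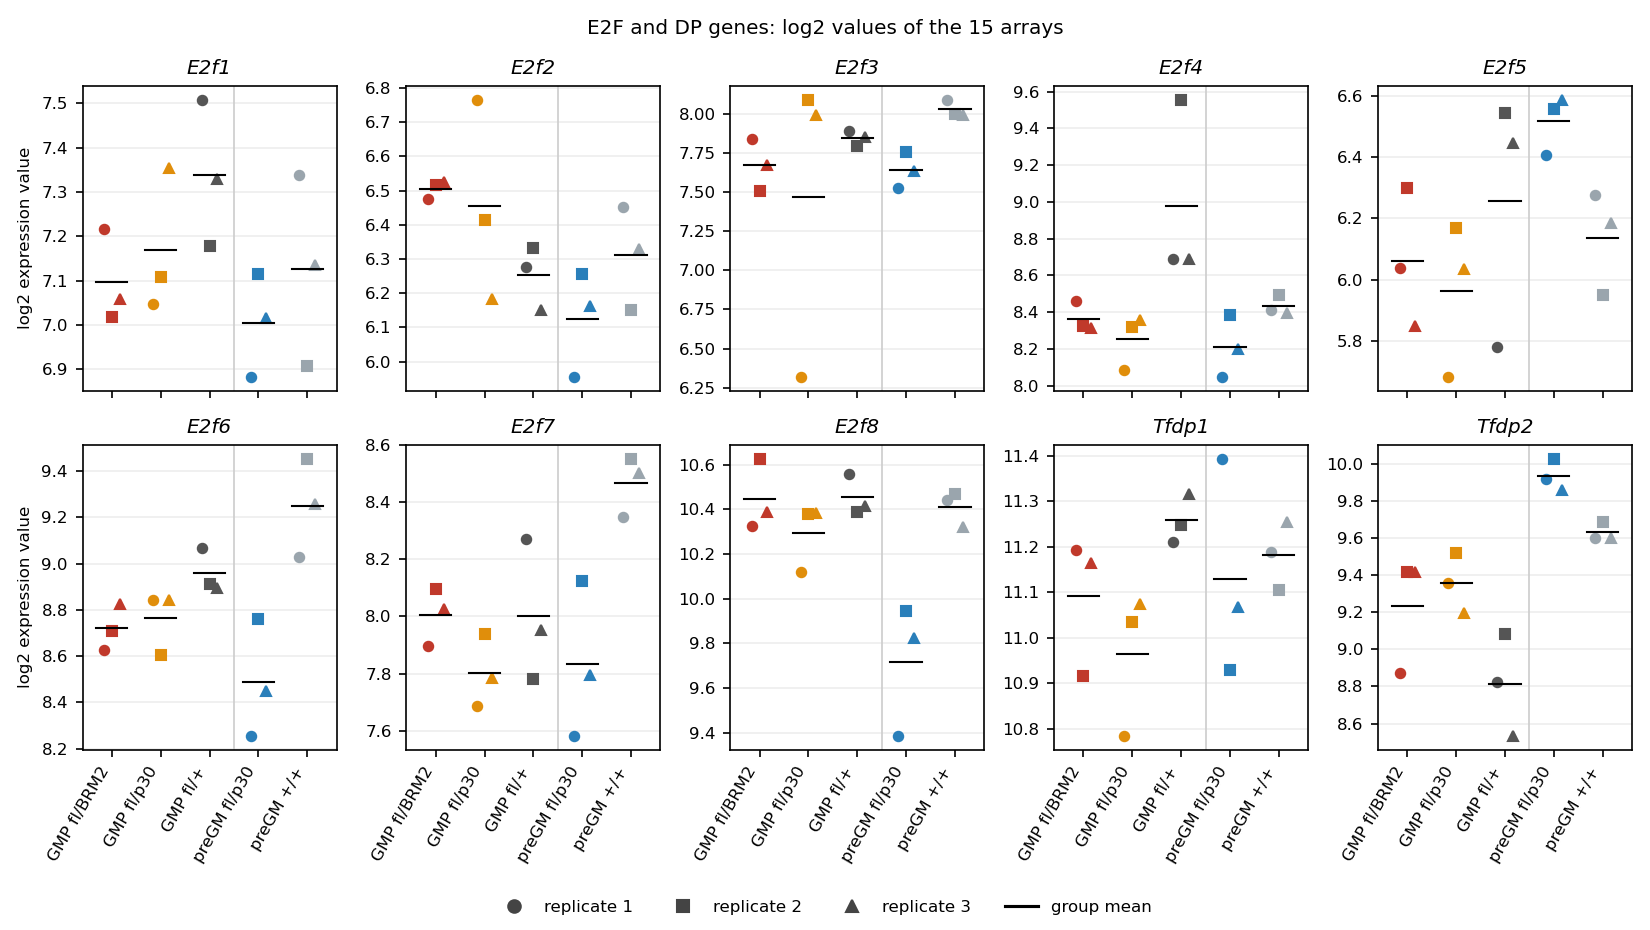
Log2 expression value of each E2F and DP gene (one panel a gene, each with its own vertical scale) in the 15 arrays, with the GMP groups left of the vertical line and the preGM groups right of it. Symbols mark the replicate number and the bar is the group mean. The E2f4 panel shows GMP fl/+ replicate 2 at 9.55 above all other arrays, the E2f3 panel shows GMP fl/p30 replicate 1 at 6.32 below all others, and in the Tfdp2 panel the preGM groups lie above the GMP groups.

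**Figure D2:**
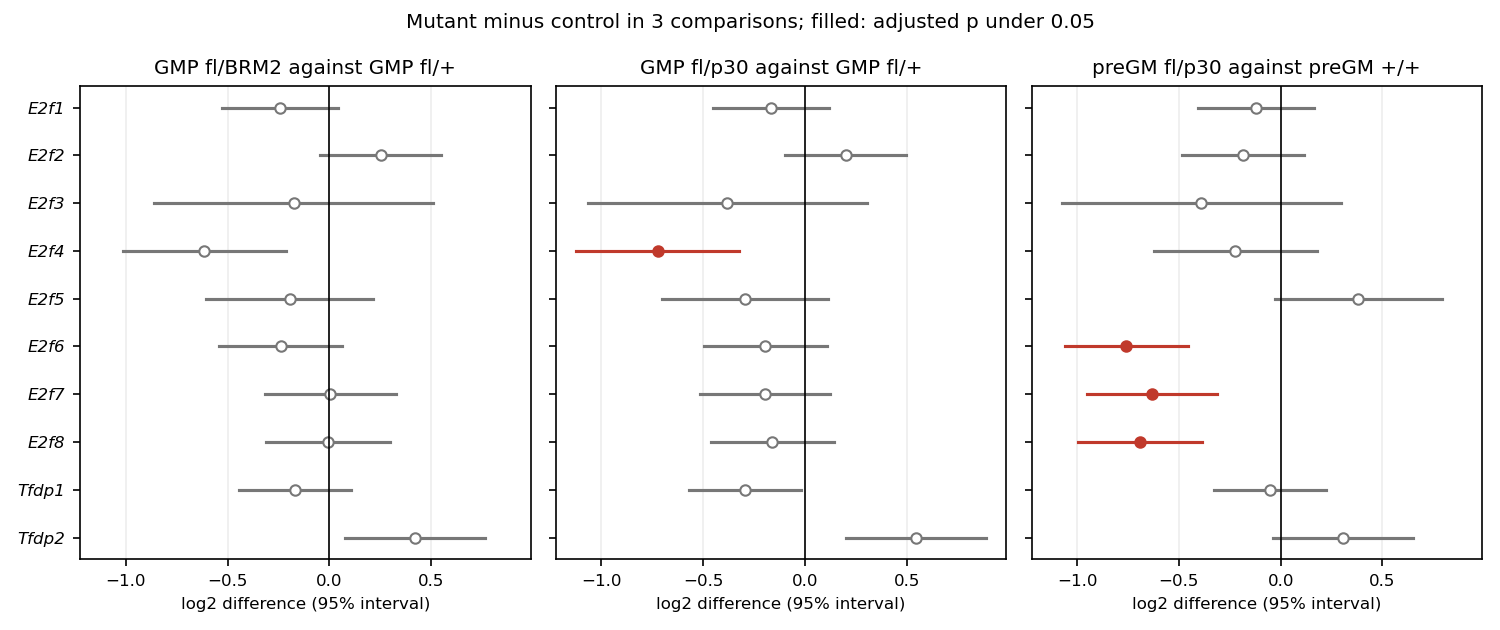
Log2 difference of each mutant group minus its control group for the 10 genes, with its 95% interval from limma. Filled red points were called at an adjusted p under 0.05, which are E2f4 in GMP fl/p30 and E2f6, E2f7 and E2f8 in preGM fl/p30.

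Among the activators, E2f1 measured 7.22, 7.02 and 7.06 in GMP fl/BRM2 and 7.05, 7.11 and 7.35 in GMP fl/p30, against 7.51, 7.18 and 7.33 in GMP fl/+. It measured 6.88, 7.11 and 7.02 in preGM fl/p30, against 7.34, 6.91 and 7.13 in preGM +/+. Every mutant group overlapped its controls. The differences were -0.24 ± 0.13 in GMP fl/BRM2, with a 95% interval of -0.53 to 0.04, -0.17 ± 0.13 in GMP fl/p30 and -0.12 ± 0.13 in preGM fl/p30, with adjusted p-values of 0.442, 0.538 and 0.727. That interval is not adjusted for the number of genes tested. Leaving out 1 array moved the GMP fl/BRM2 difference of E2f1 between -0.32 and -0.16.

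E2f2, an activator that is prominent in erythroid cells, measured 6.47, 6.52 and 6.52 in GMP fl/BRM2 and 6.77, 6.41 and 6.18 in GMP fl/p30, against 6.28, 6.33 and 6.15 in GMP fl/+. All 3 GMP fl/BRM2 arrays were above the 3 controls, while GMP fl/p30 overlapped them. It measured 5.96, 6.26 and 6.16 in preGM fl/p30, against 6.45, 6.15 and 6.33 in preGM +/+, again with overlap. The differences were 0.25 ± 0.14 in GMP fl/BRM2 (adjusted p = 0.443), 0.20 ± 0.14 in GMP fl/p30 (adjusted p = 0.474) and -0.19 ± 0.14 in preGM fl/p30 (adjusted p = 0.59), so E2f2 did not pass the test in any of them.

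E2f3, the activator with 2 probe sets, measured 7.84, 7.50 and 7.67 in GMP fl/BRM2 and 6.32, 8.09 and 7.99 in GMP fl/p30, against 7.89, 7.79 and 7.85 in GMP fl/+. The value of 6.32 is that of replicate 1 and set the group's SD of 0.99, against 0.05 in the controls. It measured 7.53, 7.75 and 7.63 in preGM fl/p30, against 8.09, 7.9998 and 7.99 in preGM +/+, without overlap. The differences were -0.17 ± 0.32, -0.38 ± 0.32 and -0.39 ± 0.32 in GMP fl/BRM2, in GMP fl/p30 and in preGM fl/p30, with adjusted p-values of 0.884, 0.571 and 0.628. The wide SE is shared by all groups, since the fit uses 1 spread a gene. Without both arrays of that mouse the difference in GMP fl/p30 was 0.19 instead. The dimmer probe set of E2f3 also gave the opposite sign in both GMP comparisons, 0.37 ± 0.20 in GMP fl/BRM2 and 0.26 ± 0.20 in GMP fl/p30, so no direction is drawn for this gene in GMPs.

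E2f4 (chr8:105297663-105305370, GRCm38.p6), the main E2F of resting cells and a gene needed for erythroid maturation in mice, measured 8.46, 8.32 and 8.32 in GMP fl/BRM2 and 8.09, 8.32 and 8.36 in GMP fl/p30, against 8.69, 9.55 and 8.69 in GMP fl/+. All 6 mutant arrays were below all 3 control arrays, of which replicate 2 stood far above the others. E2f4 fell in GMP fl/p30 to 60.6% of the control level, a difference of -0.72 ± 0.19 (adjusted p = 0.0349). The GMP fl/BRM2 difference was -0.61 ± 0.19 with an adjusted p of 0.112, which did not pass. The 2 mutants differed from each other by -0.11 ± 0.19 (GMP fl/p30 minus GMP fl/BRM2, adjusted p = 1, interval -0.51 to 0.29), so an effect of p30 that exceeds that of BRM2 was not shown. Without GMP fl/+ replicate 2 the difference in GMP fl/p30 was -0.44 (adjusted p = 0.0728), and in GMP fl/BRM2 it was -0.33 (adjusted p = 0.281). Without GMP fl/+ replicate 1, in contrast, GMP fl/BRM2 passed as well (-0.76, adjusted p = 0.0233), as it did with array weights (-0.48, adjusted p = 0.0388). The call in GMP fl/p30 was also lost without GMP fl/p30 replicate 1 (-0.64, adjusted p = 0.139) or replicate 2 (-0.76, adjusted p = 0.0813), and by smaller margins without GMP fl/BRM2 replicate 3, preGM fl/p30 replicate 3 or any 1 of the preGM +/+ arrays (adjusted p between 0.0501 and 0.0521). In a fit of only the 6 arrays compared, its adjusted p was 0.3.

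In preGMs E2f4 measured 8.05, 8.39 and 8.20 in fl/p30, against 8.41, 8.49 and 8.40 in +/+. The highest fl/p30 array lay just under the lowest control. The difference was -0.22 ± 0.19 (adjusted p = 0.636), and the p30 effect in GMPs minus that in preGMs was -0.50 ± 0.26 (adjusted p = 0.422), so the effects of the 2 stages were not shown to differ. Without GMP fl/+ replicate 2 it was -0.21 (adjusted p = 0.728).

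E2f5, the second E2F that represses with pocket proteins, measured 6.04, 6.30 and 5.85 in GMP fl/BRM2 and 5.68, 6.17 and 6.03 in GMP fl/p30, against 5.78, 6.54 and 6.45 in GMP fl/+. The groups overlapped, with differences of -0.19 ± 0.19 and -0.30 ± 0.19 (adjusted p = 0.73 and 0.435). In preGMs it measured 6.41, 6.56 and 6.59 in fl/p30, against 6.28, 5.95 and 6.19 in +/+, here without overlap and with the mutant above. That difference was 0.38 ± 0.19 (adjusted p = 0.392). Like E2f2, E2f5 measured near the array medians, which ran from 6.03 to 6.23. The p30 effect in GMPs minus that in preGMs was -0.68 ± 0.27, with an unadjusted p of 0.025 and an adjusted p of 0.329 by limma. Without GMP fl/+ replicate 1, the lowest control, E2f5 passed in GMP fl/p30 (-0.53, adjusted p = 0.0409) and for the difference between stages (-0.91, adjusted p = 0.0258). Without GMP fl/+ replicate 2 the same values were -0.15 (adjusted p = 0.831) and -0.53 (adjusted p = 0.581).

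E2f6 (chr12:16810909-16826752), the repressor that acts through Polycomb-type complexes, measured 8.26, 8.76 and 8.45 in preGM fl/p30, against 9.03, 9.45 and 9.26 in preGM +/+. All mutant arrays were below all controls. E2f6 fell to 59.1% of the control level, a difference of -0.76 ± 0.14 (adjusted p = 0.0144). It measured 8.63, 8.71 and 8.82 in GMP fl/BRM2 and 8.84, 8.61 and 8.84 in GMP fl/p30, against 9.07, 8.91 and 8.90 in GMP fl/+. Replicates 1 and 3 of GMP fl/p30 hold the same deposited value. Both GMP mutants also lay below their controls without overlap, by -0.24 ± 0.14 and -0.19 ± 0.14, which did not pass (adjusted p = 0.484 and 0.495). The p30 effect in GMPs minus that in preGMs was 0.56 ± 0.20 (adjusted p = 0.275), so a difference between the stages was not shown.

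The atypical repressors E2f7 and E2f8 are known to act together and are themselves transcribed in S phase. E2f7 (chr10:110745439-110787384) measured 7.58, 8.12 and 7.80 in preGM fl/p30, against 8.35, 8.55 and 8.50 in preGM +/+, without overlap. It fell to 64.5% of the control level, a difference of -0.63 ± 0.15 (adjusted p = 0.049). Among GMPs it measured 7.90, 8.09 and 8.03 in GMP fl/BRM2 and 7.69, 7.94 and 7.79 in GMP fl/p30, against 8.27, 7.78 and 7.95 in GMP fl/+. Those groups overlapped, with differences of 0.01 ± 0.15 in GMP fl/BRM2 (interval -0.31 to 0.33) and -0.20 ± 0.15 in GMP fl/p30.

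E2f8 (chr7:48866429-48882073) measured 9.39, 9.94 and 9.82 in preGM fl/p30, against 10.44, 10.47 and 10.32 in preGM +/+, without overlap and with replicate 1 lowest. It fell to 61.9% of the control level, a difference of -0.69 ± 0.14 (adjusted p = 0.0249). Among GMPs it measured 10.33, 10.63 and 10.39 in GMP fl/BRM2 and 10.12, 10.38 and 10.39 in GMP fl/p30, against 10.56, 10.39 and 10.42 in GMP fl/+. The GMP fl/BRM2 arrays overlapped the controls, and the GMP fl/p30 arrays lay below them by a narrow margin. The differences were -0.01 ± 0.14 in GMP fl/BRM2 (interval -0.31 to 0.30) and -0.16 ± 0.14 in GMP fl/p30 (interval -0.46 to 0.14). The p30 effect in GMPs minus that in preGMs was 0.53 ± 0.20 for E2f8 (adjusted p = 0.305) and 0.44 ± 0.21 for E2f7 (adjusted p = 0.396).

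The 3 calls in preGM fl/p30 rest on few arrays. Without both arrays of the replicate 1 mouse the differences were -0.64 for E2f6 (adjusted p = 0.0716), -0.51 for E2f7 (adjusted p = 0.189) and -0.52 for E2f8 (adjusted p = 0.058), so that 0 of the 10 genes were called by limma, with 4 at an unadjusted p under 0.05. All 3 were also lost without preGM fl/p30 replicate 1 alone or replicate 3 and without preGM +/+ replicate 2 or 3, with adjusted p-values up to 0.216, and E2f7 and E2f8 without preGM +/+ replicate 1. E2f7 was lost in addition without GMP fl/+ replicate 3, any 1 GMP fl/BRM2 array or GMP fl/p30 replicate 2 or 3, with adjusted p-values up to 0.0739. It was lost as well with a block by replicate number (adjusted p = 0.0741), after median centring (adjusted p = 0.0594) and with a mean-variance trend (adjusted p = 0.0763). In a fit of only the 6 preGM arrays all 3 passed, with adjusted p-values of 0.0227 for E2f6, 0.0349 for E2f7 and 0.0269 for E2f8.

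Tfdp1, the more widely used partner of the E2Fs, had the narrowest range of group means among the 10 probe sets chosen by highest mean, 0.29 on the log2 scale, while its dimmer probe set had a range of 1.40. It measured 11.19, 10.92 and 11.17 in GMP fl/BRM2 and 10.78, 11.03 and 11.07 in GMP fl/p30, against 11.21, 11.25 and 11.32 in GMP fl/+. Every mutant array was below every control array, by -0.17 ± 0.13 in GMP fl/BRM2 (adjusted p = 0.625) and -0.29 ± 0.13 in GMP fl/p30 (adjusted p = 0.215), which did not pass. In preGMs it measured 11.39, 10.93 and 11.07 in fl/p30, against 11.19, 11.11 and 11.25 in +/+, with overlap and a difference of -0.05 ± 0.13 (adjusted p = 0.893). The dimmer probe set of Tfdp1 gave larger differences of the same sign, -0.50 ± 0.23, -0.69 ± 0.23 and -0.72 ± 0.23 in GMP fl/BRM2, in GMP fl/p30 and in preGM fl/p30, of which none passed (adjusted p = 0.339, 0.111 and 0.18).

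Tfdp2 (chr9:96196246-96323646), the second DP gene, had the widest range of group means among the 10 chosen probe sets. It measured 8.87, 9.42 and 9.42 in GMP fl/BRM2 and 9.36, 9.52 and 9.20 in GMP fl/p30, against 8.82, 9.08 and 8.53 in GMP fl/+. The GMP fl/p30 arrays lay above all controls, while GMP fl/BRM2 replicate 1 fell among them. The differences were 0.42 ± 0.16 in GMP fl/BRM2 (adjusted p = 0.219) and 0.54 ± 0.16 in GMP fl/p30 (adjusted p = 0.0613), neither of which passed. In preGMs it measured 9.92, 10.03 and 9.86 in fl/p30, against 9.60, 9.69 and 9.60 in +/+, again with the mutant above without overlap, by 0.30 ± 0.16 (adjusted p = 0.419). The value in GMP fl/p30 passed in 6 of the 25 other settings run, among them without GMP fl/+ replicate 2 (0.68, adjusted p = 0.0366), without GMP fl/BRM2 replicate 1 (adjusted p = 0.0298) and without GMP fl/p30 replicate 3 (0.63, adjusted p = 0.0495). The value in GMP fl/BRM2 passed without GMP fl/BRM2 replicate 1 (0.60, adjusted p = 0.0452) and with array weights (0.65, adjusted p = 0.0168).

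Counted without a test, the arrays of 1 member (E2f2) lay above and of 3 members (E2f4, E2f6 and Tfdp1) below all controls in GMP fl/BRM2, where 6.74% of all genes lay above and 8.51% below. For GMP fl/p30 it was 1 above (Tfdp2) and 4 below (E2f4, E2f6, E2f8 and Tfdp1), beside 9.16% and 8.27% of all genes. For preGM fl/p30 it was 2 above (E2f5 and Tfdp2) and 5 below (E2f3, E2f4, E2f6, E2f7 and E2f8), beside 12.4% and 12.8%.

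The markers of other cell types moved in the same comparisons. Of all genes, 1.89% were called higher and 0.642% lower in GMP fl/BRM2, and 4.69% and 1.37% in GMP fl/p30. In GMPs, 2 of 11 granulocyte-monocyte progenitor markers fell in each mutant, with summed log2 levels of 98.4 to 110.8 in GMP fl/BRM2 and 96.3 to 112.5 in GMP fl/p30, against 112.0 to 116.1 in GMP fl/+. Of 7 measured erythroid markers, 4 rose in each, with sums of 56.4 to 61.7 and 56.6 to 60.02, against 49.1 to 51.1 in the controls. Of 5 megakaryocyte markers 2 rose in each mutant, with sums of 33.5 to 35.6 in GMP fl/BRM2 and 32.9 to 35.2 in GMP fl/p30, against 30.8 to 31.0 in the controls, where the platelet genes Pf4 and Gp5 stayed below the array median. Of 8 mast cell and basophil markers, 3 rose and 2 fell in GMP fl/BRM2 and 3 rose and 3 fell in GMP fl/p30, with sums of 66.7 to 69.1 and 65.2 to 67.2, against 61.4 to 65.3 in the controls. Of 7 T and NK cell markers, 1 rose in GMP fl/BRM2 and 5 in GMP fl/p30, with sums of 49.0 to 50.9 and 53.1 to 54.0, against 46.0 to 47.7 in the controls, and with Cd3g and Klrd1 below the array median in every array of all 5 groups. Of 6 B cell markers 0 passed in either mutant by limma, 0 of them at an unadjusted p under 0.05, with sums of 38.5 to 42.5 and 39.2 to 40.7, against 39.0 to 39.6, and the defining genes Cd79a and Ebf1 were below the array median in all 9 GMP arrays. Without both arrays of the replicate 1 mouse, GMP fl/p30 had 3 T and NK markers higher and 1 granulocyte-monocyte marker lower. Of the 5 megakaryocyte markers 0 were then called by limma, with 3 at an unadjusted p under 0.05. The share of all genes called without that mouse is not given here, so these counts are a description. The part of these cell types in the E2f4 and Tfdp2 values was not tested.

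For preGM fl/p30, 1 of 11 granulocyte-monocyte markers fell and 2 of 7 T and NK markers rose, beside 1.03% lower and 0.647% higher among all genes. The T and NK sums were 52.1 to 52.3, against 47.7 to 48.4 in preGM +/+. Of 7 erythroid and 5 megakaryocyte markers 0 were called by limma, and 1 of each had an unadjusted p under 0.05. Of 8 mast cell and basophil markers 1 rose and 1 fell, with sums of 58.1 to 60.2, against 57.7 to 59.7. The granulocyte-monocyte sums were 89.0 to 91.9 in preGM fl/p30, against 99.3 to 101.9 in preGM +/+, and the neutrophil elastase gene Elane was below the array median in all 3 fl/p30 arrays. The erythroid sums were 59.0 to 59.6 in preGM fl/p30, against 56.4 to 57.3 in preGM +/+, and the megakaryocyte sums 33.8 to 35.3, against 31.6 to 33.3. Of 6 B cell markers 0 passed by limma, none at an unadjusted p under 0.05. The B cell sums ran from 41.5 to 43.8 in preGM fl/p30, against 39.4 to 51.9 in preGM +/+, where replicate 3 stood apart, with a mean deviation of 1.75 against -0.33 and -0.05 in replicates 1 and 2. Without preGM +/+ replicate 3 the preGM differences were -0.75 for E2f6 (adjusted p = 0.0615), -0.62 for E2f7 (adjusted p = 0.157) and -0.74 for E2f8 (adjusted p = 0.0644). The part of these markers in the lower E2f6, E2f7 and E2f8 values was not tested.

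Between the 2 mutants in GMPs, 0 of the 10 genes were called by limma, where 0.00502% of all genes were called, and 0 had an unadjusted p under 0.05. The differences, GMP fl/p30 minus GMP fl/BRM2, ran from -0.21 for E2f3 to 0.12 for Tfdp2, and 0 members lay above or below without overlap, beside 4.67% and 3.66% of all genes. The intervals still allow differences of up to 0.89 in size, reached by E2f3, and the interval for E2f7 was -0.52 to 0.12.

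The step from preGM to GMP in the controls changed 1 member. Tfdp2 fell in GMP fl/+ to 56.8% of its level in preGM +/+, a difference of -0.82 ± 0.16 (adjusted p = 0.00787), and it was the 1 of 10 called where 10.2% of all genes were called, 6.02% lower and 4.19% higher. That call held in all 25 other settings run, with differences between -0.97 and -0.66 and adjusted p-values between 0.00111 and 0.0393. E2f4 was higher in GMP fl/+ without overlap, by 0.55 ± 0.19 (adjusted p = 0.0735), and E2f7 lower without overlap, by -0.47 ± 0.15 (adjusted p = 0.0601), and neither passed. Both passed without GMP fl/+ replicate 1 (0.69, adjusted p = 0.0221, and -0.60, adjusted p = 0.0119), and E2f7 also without preGM fl/p30 replicate 1 or 2 (adjusted p = 0.0486 and 0.047). Without GMP fl/+ replicate 2, E2f4 was at 0.26 (adjusted p = 0.256). The other 7 members had differences between -0.29 (E2f6) and 0.21 (E2f1), of which E2f3 was lower without overlap. The dimmer probe sets gave 0.68 ± 0.23 for Tfdp1 (adjusted p = 0.0742) and -0.57 ± 0.20 for E2f3 (adjusted p = 0.0758), and neither passed. In all, 1 member lay above and 3 below without overlap, beside 21.1% and 12.9% of all genes.

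In the fl/p30 animals, where both stages came from the same 3 mice, 0 of the 10 genes were called by limma between GMPs and preGMs, beside 0.642% of all genes (0.356% higher and 0.286% lower), and 4 had an unadjusted p under 0.05. Those were E2f8 with 0.57 ± 0.14 (adjusted p = 0.0962), Tfdp2 with -0.58 ± 0.16 (adjusted p = 0.137), E2f5 with -0.56 ± 0.19 (adjusted p = 0.221) and E2f2 with 0.33 ± 0.14 (adjusted p = 0.34). The main test, here and for the difference between the p30 effects, did not pair the arrays by mouse. With the animal as a block E2f8 passed between GMPs and preGMs (adjusted p = 0.032). By its dimmer probe set Tfdp1 differed by 0.72 ± 0.23 (adjusted p = 0.202), opposite in sign to its chosen set (-0.17 ± 0.13). By its dimmer set E2f3 differed by -0.17 ± 0.20 (adjusted p = 0.821), and neither passed. Of the members, by their chosen probe sets, 1 lay above (E2f8) and 2 below (E2f5 and Tfdp2) without overlap, beside 9.44% and 7.72% of all genes. Tfdp2 thus measured lower in GMPs than in preGMs without overlap in the fl/p30 mice, as it did between the control groups, whose genotypes differ. For the difference between the p30 effects of the 2 stages, 0 of 10 members passed by limma, as did 0.00502% of all genes, and 3 had an unadjusted p under 0.05 (E2f5, E2f6 and E2f8).

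Over the 5 groups, the means of Tfdp2 ran, high to low, from preGM fl/p30 at 9.93 over preGM +/+ at 9.63, GMP fl/p30 at 9.36 and GMP fl/BRM2 at 9.24 to GMP fl/+ at 8.81. Its range of 1.12 on the log2 scale was wider than that of all but 5.58% of genes, whose median range was 0.35. By their chosen probe sets, the ranges of the other members were 0.77 for E2f4, 0.76 for E2f6, 0.73 for E2f8, 0.66 for E2f7, 0.56 for E2f3 and for E2f5, 0.38 for E2f2, 0.33 for E2f1 and 0.29 for Tfdp1, whose dimmer probe set had the wider range given above. GMP fl/+ had the highest mean for E2f1, E2f4, E2f8 and Tfdp1, and preGM +/+ for E2f3, E2f6 and E2f7. GMP fl/BRM2 had it for E2f2, and preGM fl/p30 for E2f5 and Tfdp2. The lowest mean was in preGM fl/p30 for E2f1, E2f2, E2f4, E2f6 and E2f8, in GMP fl/p30 for E2f3, E2f5, E2f7 and Tfdp1, and in GMP fl/+ for Tfdp2. Of the 40 pairs of neighbouring groups in these orders 0 passed by limma, with 4 at an unadjusted p under 0.05 and a lowest adjusted p of 0.0735.

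The genes whose levels ran closest to those of Tfdp2 over the 15 arrays, by the root mean square difference of values centred on each gene's own mean, were Cir1 (0.15), Med12l (0.17), Fbxo32 (0.17), Zfp935 (0.17) and Hhex (0.18), where the median over 19936 genes was 0.48. Hhex, a homeobox gene of early blood progenitors, averaged 10.12 in GMP fl/BRM2, 10.26 in GMP fl/p30, 9.62 in GMP fl/+, 10.85 in preGM fl/p30 and 10.37 in preGM +/+. For E2f4 the closest were Atg2b (0.13), Sars2 (0.14), Gps2 (0.14), Man2c1 (0.14) and Rps6kb2 (0.15), with a median over all genes of 0.38. These likenesses include the array by array differences within groups, and the SDs of the 5 genes near E2f4 in GMP fl/+ ran from 0.31 to 0.56, beside 0.50 for E2f4.

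The pocket proteins bind E2Fs and turn them into repressors. Of the 3, 1 rose in both GMP mutants, beside 1.89% of all genes in GMP fl/BRM2 and 4.69% in GMP fl/p30. This was Rbl2, which encodes p130, the partner of E2f4 in resting cells. It measured 8.82, 9.19 and 8.96 in GMP fl/BRM2 and 9.63, 9.26 and 9.04 in GMP fl/p30, against 8.39, 7.92 and 8.07 in GMP fl/+, without overlap. The differences were 0.86 ± 0.16 in GMP fl/BRM2 (adjusted p = 0.00931), a 1.82-fold higher level, and 1.18 ± 0.16 in GMP fl/p30 (adjusted p = 0.000541), a 2.27-fold higher level. Rbl2 in preGM fl/p30 was at 8.76, 8.99 and 8.92, against 8.75, 8.58 and 8.69 in preGM +/+, a difference of 0.22 ± 0.16 (adjusted p = 0.577). Between the control stages Rbl2 was lower in GMP fl/+ than in preGM +/+, with a difference of -0.55 ± 0.16 (adjusted p = 0.0428). GMP fl/+ had its lowest group mean, 8.13, beside 8.67 in preGM +/+. The p30 effect in GMPs minus that in preGMs was 0.97 ± 0.22 (adjusted p = 0.118), so a difference between stages was not shown. Rb1 (0.37 ± 0.18, 0.49 ± 0.18 and 0.19 ± 0.18 in GMP fl/BRM2, in GMP fl/p30 and in preGM fl/p30) and Rbl1, which encodes p107 (-0.08 ± 0.18, -0.29 ± 0.18 and -0.52 ± 0.18), did not pass. In fits of only the arrays compared, where fewer degrees of freedom remain, Rbl2 had adjusted p-values of 0.0858 in GMP fl/BRM2 and 0.052 in GMP fl/p30. Without GMP fl/BRM2 replicate 2 its value in GMP fl/BRM2 was 0.76 (adjusted p = 0.0709).

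Upstream of the pocket proteins, cyclins and CDKs release E2Fs and CDK inhibitors hold them back. Of 6 measured CDK inhibitors 1 rose in each GMP mutant, beside 1.89% of all genes in GMP fl/BRM2 and 4.69% in GMP fl/p30. This was Cdkn2d, which encodes p19Ink4d. It measured 7.06, 7.26 and 7.21 in GMP fl/BRM2 and 7.38, 7.30 and 6.91 in GMP fl/p30, against 6.68, 6.65 and 6.28 in GMP fl/+. Both mutants lay above the controls, by 0.64 ± 0.15 (adjusted p = 0.0346) and 0.66 ± 0.15 (adjusted p = 0.0176). The call was lost without GMP fl/+ replicate 3 in both (0.51, adjusted p = 0.13, and 0.53, adjusted p = 0.0792). It was lost in GMP fl/BRM2 as well without GMP fl/BRM2 replicate 2 or 3, GMP fl/+ replicate 2 or preGM +/+ replicate 1 (adjusted p at most 0.184), and for GMP fl/p30 when its own replicate 1 or 2 was left out (adjusted p at most 0.0888). In fits of only the arrays compared the adjusted p was 0.126 in GMP fl/BRM2 and 0.188 in GMP fl/p30, and without both arrays of the replicate 1 mouse GMP fl/p30 was at 0.57 (adjusted p = 0.108). Cdkn1b (p27) was at 0.40 ± 0.26, 0.13 ± 0.26 and 0.45 ± 0.26 in GMP fl/BRM2, in GMP fl/p30 and in preGM fl/p30, and Cdkn2c (p18) at 0.12 ± 0.16, 0.13 ± 0.16 and -0.55 ± 0.16, none of which passed.

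Of 9 G1 cyclins and CDKs 0 passed in either GMP mutant by limma, with 1 in GMP fl/BRM2 and 2 in GMP fl/p30 at an unadjusted p under 0.05, and 1 fell in preGM fl/p30. Ccnd1, which encodes cyclin D1, measured 7.16, 7.33 and 7.60 in preGM fl/p30, against 8.40, 8.34 and 8.64 in preGM +/+, far from overlap. It fell to 46.7% of the control level, a difference of -1.10 ± 0.15 (adjusted p = 0.00274), and the call held in all 25 other settings. Among GMPs Ccnd1 was at 6.42, 6.80 and 7.03 in GMP fl/BRM2 and 6.74, 6.81 and 6.87 in GMP fl/p30, against 7.13, 6.88 and 6.92 in GMP fl/+, with differences of -0.23 ± 0.15 and -0.17 ± 0.15 that did not pass. Between the control stages Ccnd1 fell as well, with a difference of -1.48 ± 0.15 in GMP fl/+ against preGM +/+ (adjusted p = 0.000152), and Cdk4 fell there too, with a difference of -0.57 ± 0.16 (adjusted p = 0.0365). For Ccnd1 the p30 effect in GMPs minus that in preGMs was 0.93 ± 0.22 (adjusted p = 0.124).

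**Figure D3:**
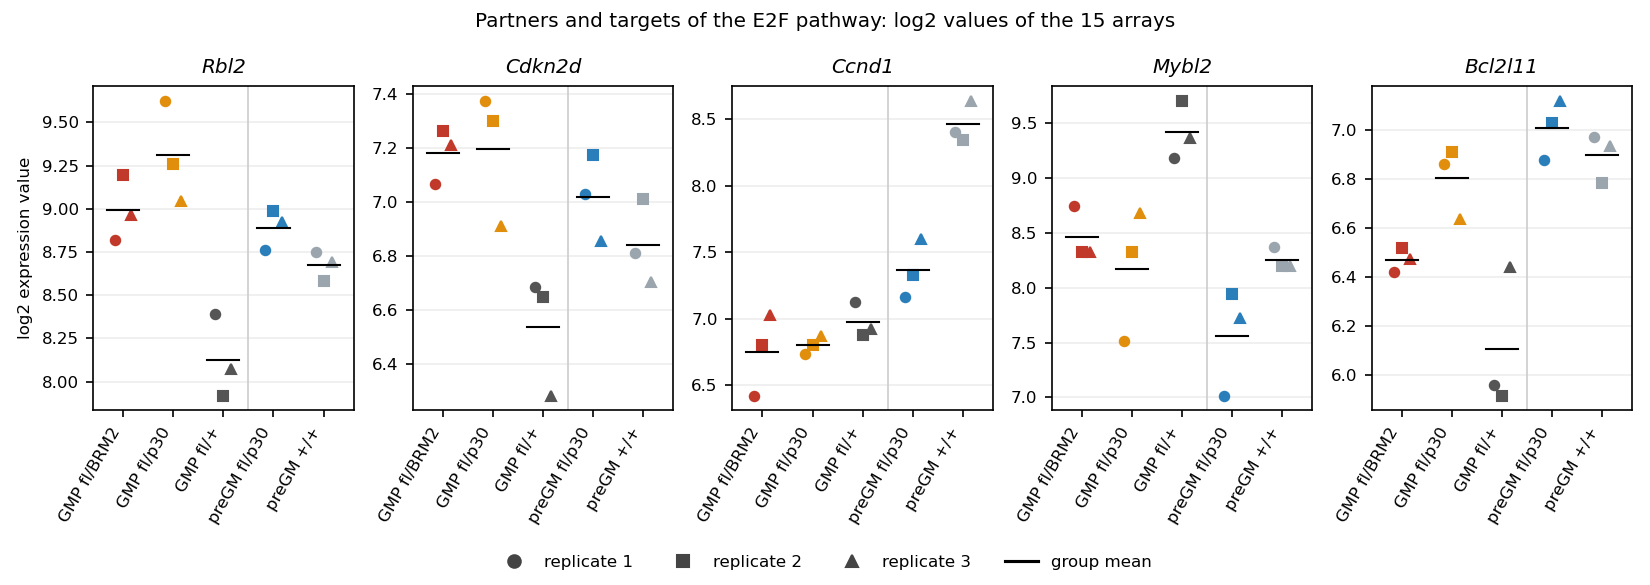
Log2 expression value of 5 genes around the E2Fs in the 15 arrays, each panel with its own vertical scale, with GMP groups left of the vertical line and preGM groups right of it. Rbl2, Cdkn2d and Bcl2l11 are higher in the GMP mutants than in most GMP fl/+ arrays, Ccnd1 is lower in preGM fl/p30 than in preGM +/+, and Mybl2 is lower in both GMP mutants than in GMP fl/+.

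The MuvB complex joins p130 and E2f4 in the DREAM repressor and B-Myb or FoxM1 in dividing cells. Of its 8 measured genes 1 fell in GMP fl/p30, beside 1.37% of all genes. In GMP fl/BRM2 and in preGM fl/p30 0 were called by limma, beside 2.53% and 1.68% of all genes. There 2 and 3 had an unadjusted p under 0.05. Mybl2, which encodes B-Myb and is a classical E2F target, measured 8.74, 8.32 and 8.32 in GMP fl/BRM2 and 7.52, 8.32 and 8.68 in GMP fl/p30, against 9.18, 9.71 and 9.36 in GMP fl/+. Mutants and controls did not overlap, and 3 mutant arrays hold the same deposited value. The difference was -1.24 ± 0.27 in GMP fl/p30 (adjusted p = 0.0152) and -0.95 ± 0.27 in GMP fl/BRM2 (adjusted p = 0.0877). Without GMP fl/p30 replicate 1 the GMP fl/p30 value was -0.91 (adjusted p = 0.067), and without GMP fl/+ replicate 2 it was -1.10 (adjusted p = 0.064). In a fit of only the arrays compared its adjusted p was 0.149. Mybl2 was at 7.02, 7.95 and 7.73 in preGM fl/p30, against 8.37, 8.20 and 8.20 in preGM +/+, a difference of -0.69 ± 0.27 (adjusted p = 0.273). In the control stages it was higher in GMP fl/+ than in preGM +/+ by 1.16 ± 0.27 (adjusted p = 0.0188), while Mybl1 (-0.98 ± 0.28, adjusted p = 0.043) and Rbbp4 (-0.68 ± 0.18, adjusted p = 0.0346) were lower.

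Of 10 measured components of the E2f6 repressor complex 0 were called by limma in GMP fl/BRM2 and in preGM fl/p30. There 4 and 0 had an unadjusted p under 0.05, and 2.53% and 1.68% of all genes were called. In GMP fl/p30 1 rose, beside 4.69% of all genes. Cbx3, a heterochromatin protein of the complex, measured 11.58, 11.45 and 11.42 in GMP fl/p30, against 11.32, 10.57 and 10.75 in GMP fl/+, with all mutant arrays above. The difference was 0.60 ± 0.15 (adjusted p = 0.0336), and it was lost without either GMP fl/+ replicate 2 (0.45, adjusted p = 0.138) or replicate 3 (0.54, adjusted p = 0.119), without GMP fl/p30 replicate 1 or 2 (adjusted p = 0.127 and 0.0853) and without preGM +/+ replicate 1 (adjusted p = 0.0509). With the mean over its probe sets it was 0.46 (adjusted p = 0.101), without both arrays of the replicate 1 mouse 0.56 (adjusted p = 0.136), and in a fit of only the arrays compared its adjusted p was 0.291. In the step from preGM +/+ to GMP fl/+, 3 of the 10 rose and 3 fell, beside 4.19% and 6.02% of all genes. Pcgf6 (-1.16 ± 0.19), Cbx3 (-0.79 ± 0.15) and Mga (-0.70 ± 0.15) were lower and Rybp (0.62 ± 0.12) higher in GMP fl/+.

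The targets of the E2Fs were read as 4 lists of known target genes and a list of G2 and mitosis genes. Over all genes, 2.53% were called in GMP fl/BRM2 and 1.68% in preGM fl/p30. In GMP fl/p30 4.69% of all genes were called higher and 1.37% lower. Against GMP fl/+, GMP fl/BRM2 had 0 of 18 replication licensing genes, 0 of 17 DNA synthesis genes, 0 of 13 chromatin and checkpoint genes and 0 of 19 G2 and mitosis genes called by limma, where 4, 4, 1 and 0 had an unadjusted p under 0.05, with median differences of -0.12, -0.02, -0.03 and 0.04, beside -0.02 over all genes. For GMP fl/p30, 2 of the 18 licensing genes and 1 of the 17 DNA synthesis genes fell and 0 of the other lists were called (2 and 9 at an unadjusted p under 0.05), with medians of -0.36, -0.23, -0.19 and -0.53, beside -0.04. For preGM fl/p30, 0 genes of these 4 lists were called by limma, where 8, 11, 4 and 8 had an unadjusted p under 0.05, with medians of -0.44, -0.50, -0.25 and -0.49, beside 0.03. Of these genes, all 18, all 17, 12 of 13 and all 19 had negative differences in preGM fl/p30. In GMP fl/p30 it was 15, 14, 9 and 18 of them, and in GMP fl/BRM2 11, 9, 7 and 8. The genes of a list share the same arrays, and the share of negative differences over all genes is not given. These sign counts are therefore a description. Without both arrays of the replicate 1 mouse the medians were -0.07, -0.01, 0.07 and -0.20 in GMP fl/p30, beside -0.06 over all genes, with 1 licensing gene and 1 G2 and mitosis gene lower. They were -0.31, -0.38, -0.23 and -0.33 in preGM fl/p30, beside 0.01, with 1 chromatin and checkpoint gene lower. The share of all genes called without that mouse is not given here, so these counts are a description.

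**Figure D4:**
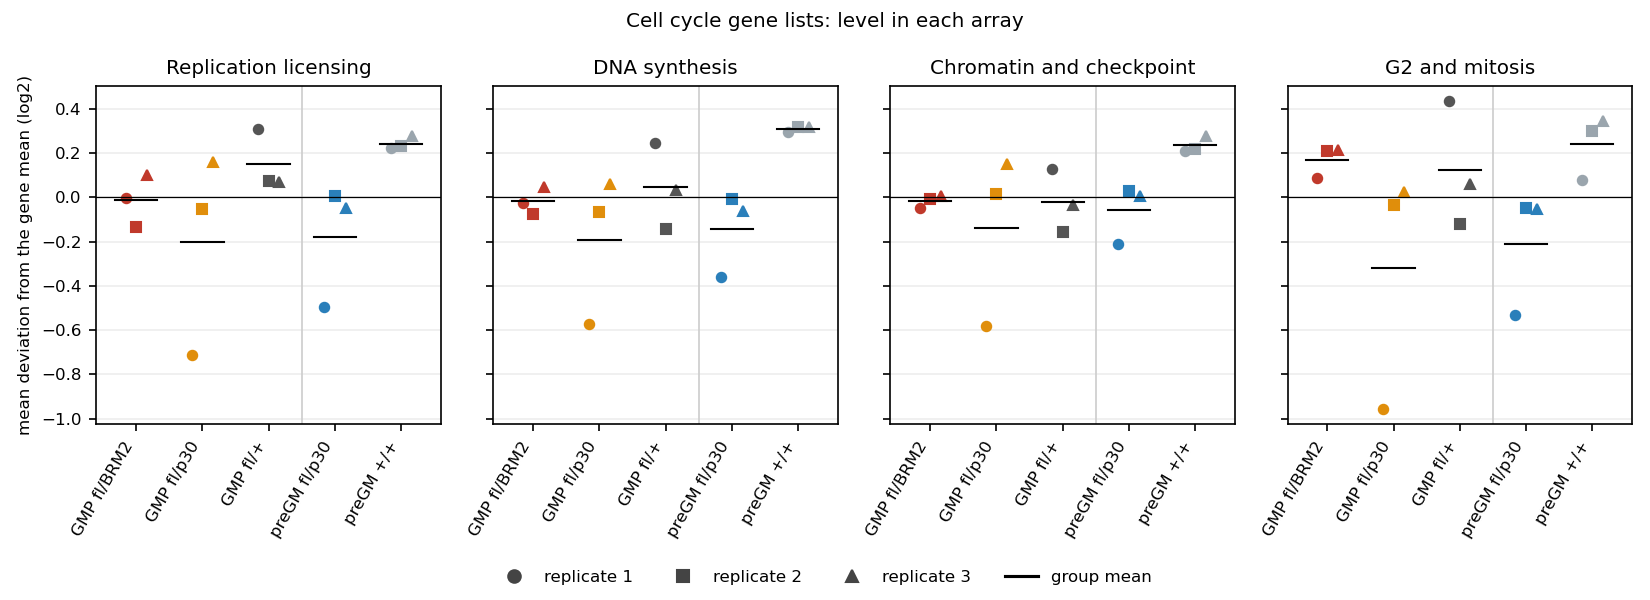
Mean deviation of a list's genes from each gene's own mean over the 15 arrays, on the log2 scale, for each array, with GMP groups left of the vertical line and preGM groups right of it. Replicate 1 of both fl/p30 groups, from 1 mouse, is lowest in each panel of its stage, at -0.96 and -0.53 in the panel of G2 and mitosis genes, and the other fl/p30 preGM arrays lie below the preGM controls.

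For the licensing genes, the mean deviation of an array from the gene means was -0.0025, -0.13 and 0.10 in GMP fl/BRM2 and -0.71, -0.05 and 0.16 in GMP fl/p30, against 0.31, 0.07 and 0.07 in GMP fl/+. It was -0.49, 0.01 and -0.05 in preGM fl/p30, against 0.22, 0.23 and 0.28 in preGM +/+. In preGMs the groups did not overlap, and in GMPs the low mean of fl/p30 came from 1 array.

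Cdc45, a part of the replicative helicase, measured 7.66, 8.98 and 9.33 in GMP fl/p30, against 9.81, 10.02 and 9.72 in GMP fl/+, and fell by 1.19 ± 0.32 on the log2 scale (adjusted p = 0.0403). Cdc7, the kinase that fires origins, measured 7.09, 7.50 and 7.68, against 7.81, 8.55 and 8.81 in GMP fl/+, and fell by 0.97 ± 0.25 (adjusted p = 0.034). Tk1, thymidine kinase, measured 8.16, 8.56 and 8.94, against 9.18, 9.80 and 9.78 in GMP fl/+, and fell by 1.03 ± 0.25 (adjusted p = 0.0265). All 3 genes were free of overlap and lowest in replicate 1 of GMP fl/p30. Without GMP fl/p30 replicate 1 they were at -0.69 (Cdc45, adjusted p = 0.101), -0.80 (Cdc7, adjusted p = 0.15) and -0.83 (Tk1, adjusted p = 0.128). Each was also lost without GMP fl/p30 replicate 2 or GMP fl/+ replicate 2 or 3 (adjusted p between 0.0612 and 0.14), and Cdc45 and Cdc7 without any 1 preGM +/+ array. Cdc45 was lost too without any 1 GMP fl/BRM2 array or preGM fl/p30 replicate 2 or 3 (adjusted p at most 0.0576), and after median centring (adjusted p = 0.0554). In a fit of only the arrays compared none of them passed, with adjusted p-values of 0.292 for Cdc45, 0.217 for Cdc7 and 0.149 for Tk1. Without both arrays of the replicate 1 mouse Cdc7 (-0.80, adjusted p = 0.0815) and Tk1 (-0.83, adjusted p = 0.0597) were lost, while Cdc45 passed (-0.69, adjusted p = 0.0294). The GMP fl/BRM2 differences were -0.83 ± 0.32 for Cdc45, -0.77 ± 0.25 for Cdc7 and -0.65 ± 0.25 for Tk1, with adjusted p-values of 0.22, 0.134 and 0.23.

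Of 5 measured apoptosis genes that E2F1 can induce, 1 rose in GMP fl/p30, beside 4.69% of all genes. In GMP fl/BRM2 and in preGM fl/p30 0 were called by limma, beside 2.53% and 1.68% of all genes. There 3 and 0 had an unadjusted p under 0.05. Bcl2l11, which encodes the BH3-only protein Bim, measured 6.42, 6.52 and 6.47 in GMP fl/BRM2 and 6.86, 6.91 and 6.63 in GMP fl/p30, against 5.96, 5.92 and 6.44 in GMP fl/+. The GMP fl/p30 arrays lay above all controls and GMP fl/BRM2 overlapped 1 of them. The difference was 0.69 ± 0.14 in GMP fl/p30 (adjusted p = 0.00748) and 0.36 ± 0.14 in GMP fl/BRM2 (adjusted p = 0.209). In a fit of only the arrays compared the value in GMP fl/p30 had an adjusted p of 0.166, and it passed in the other 24 settings. Bcl2l11 in preGM fl/p30 differed by 0.11 ± 0.14 (adjusted p = 0.761). Between the control stages it was lower in GMP fl/+ than in preGM +/+, with a difference of -0.79 ± 0.14 (adjusted p = 0.00387). Its lowest group mean was 6.11 in GMP fl/+, beside 6.80 in GMP fl/p30 and 6.90 in preGM +/+.

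Among the G2 and mitosis genes, Aurkb, which encodes aurora kinase B, had differences of -1.03 ± 0.29 in GMP fl/p30 (adjusted p = 0.0521) and -0.89 ± 0.29 in preGM fl/p30 (adjusted p = 0.173), and neither passed. Among preGM fl/p30 differences, the licensing gene Gins2 (-0.65 ± 0.17, adjusted p = 0.081), the DNA polymerase gene Pold1 (-0.68 ± 0.20, adjusted p = 0.123) and the methylation factor Uhrf1 (-0.84 ± 0.21, adjusted p = 0.0595) came closest in their lists without passing.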

How the data were processed

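The deposited log2 expression values of 15 arrays were used as given. Per the submitters' processing notes affy and RMA produced them, a method of background correction, quantile normalization and a summary over each set's probes. No versions are stated. The platform annotation gave 1 symbol to 21640 probe sets, several to 1321 and none to 11799. Genes were named by symbol and placed by Entrez ID in RefSeq (GRCm38.p6). With limma 3.58.1 in R 4.3.3, lmFit took the means of the 5 groups from the 15 arrays and eBayes moderated the spread, giving 10 residual and 4.24 prior degrees of freedom, and 7 comparisons were tested over 19937 genes. By their mean over the 15 arrays all 10 members lie above the dim-gene filter of 6.12, with E2f5 (6.19) and E2f2 (6.33) closest to it. The group means of E2f5 in GMP fl/p30 (5.96) and GMP fl/BRM2 (6.06) were below it.

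The members, the 10 pathway lists and the 6 marker lists were chosen with earlier results of these data known. All members are named, and of each pathway list up to 4 called genes, or up to 2 with the smallest p where none was called, of which a selection is printed, and any pocket protein or CDK inhibitor. For the 2 members with the widest range, the 5 nearest genes are given.

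Numbers pair the fl/p30 samples, since the labels give the same animal numbers to both stages. Deviations from the group means correlated over genes at 0.334, 0.32 and 0.116 within the 3 animals, and at 0.154 at most between animals. The test was tried on simulated data, but the outcome is not given here, so that trial is no check of the p-values.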

Additional observations from a re-analysis of the deposited data

How the results depend on the processing

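Each comparison was rerun in 25 other settings, of which leaving out both arrays of the fl/p30 replicate 1 mouse was chosen after seeing the data. The number of members called in GMP fl/p30 against GMP fl/BRM2 was 0 in all of them. For GMP fl/BRM2 against GMP fl/+ (0 called) it was 0 to 1 when 1 array was left out and 2 with array weights. For GMP fl/p30 against GMP fl/+ (1 called) it was 0 to 2 when 1 array was left out, 0 in a fit of only the groups compared (fewer samples) and without that mouse, and 2 with dim genes left out and with array weights. For preGM fl/p30 against preGM +/+ (3 called) it was 0 to 3 when 1 array was left out and 0 without that mouse. For GMP fl/+ against preGM +/+ (1 called) it was 1 to 3, and 2 after median centring, with array weights and without that mouse. For GMP fl/p30 against preGM fl/p30 (0 called) it was 2 with array weights and 0 whenever 1 array was left out. For the difference between the p30 effects (0 called) it was 0 to 1, and 1 with array weights. Why array weights raised these counts was not tested. The share of all genes called in each setting is not given here, so a shift in these counts is no result about the members.

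With the replicate block by animal, 2 members were called in GMP fl/+ against preGM +/+ (E2f7 and Tfdp2) and 1 in GMP fl/p30 against preGM fl/p30 (E2f8). With the replicate block by replicate number, which shares only a number outside the fl/p30 animals, 2 were called in GMP fl/p30 against GMP fl/+ (E2f4 and Tfdp2) and 2 in preGM fl/p30 against preGM +/+, where E2f7 was lost (adjusted p = 0.0741).

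Of 70 member comparisons, 21 turned sign in at least 1 setting, 54 times in all and 34 of these with 1 array left out. None was called before or after, and the cause was not tested. In GMP fl/BRM2 against GMP fl/+, E2f3 was 0.10 with the mean over probe sets, E2f7 -0.0069 after centring and -0.0078 after renewed quantile normalization, and E2f8 0.012 with array weights. With array weights and without that mouse, E2f3 was 0.15 and 0.19 in GMP fl/p30 against GMP fl/+, 0.34 and 0.37 against GMP fl/BRM2, and 0.34 and 0.34 against preGM fl/p30, and E2f5 was 0.11 and 0.039 against GMP fl/BRM2. E2f6 against GMP fl/BRM2 was -0.0045 after quantile normalization and -0.11 with array weights. After centring, E2f8 was -0.032 and Tfdp1 -2.3e-05 in GMP fl/+ against preGM +/+. In GMP fl/p30 against preGM fl/p30, E2f7 was 0.037 with array weights and Tfdp1 0.27 with the mean over probe sets and 0.056 without that mouse. The p30 effect in GMPs minus that in preGMs was -0.25 for E2f3 after quantile normalization.

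Leaving out 1 array turned the sign within these ranges. In GMP fl/BRM2 against GMP fl/+, E2f7 ran from -0.11 to 0.14 and E2f8 from -0.096 to 0.054. In GMP fl/p30 against GMP fl/+, E2f3 ran from -0.69 to 0.19. In preGM fl/p30 against preGM +/+, Tfdp1 ran from -0.18 to 0.048. Between the GMP mutants, E2f1 ran from -0.021 to 0.13, E2f2 from -0.21 to 0.084, E2f3 from -0.52 to 0.37, E2f5 from -0.21 to 0.039, E2f6 from -0.0018 to 0.12 and Tfdp2 from -0.059 to 0.21. In GMP fl/+ against preGM +/+, E2f2 ran from -0.14 to 0.013, E2f5 from -0.024 to 0.36 and E2f8 from -0.0078 to 0.077. In GMP fl/p30 against preGM fl/p30, E2f3 ran from -0.48 to 0.40, E2f4 from -0.036 to 0.13 and E2f7 from -0.16 to 0.11. For the difference between p30 effects, E2f1 ran from -0.15 to 0.064 and E2f3 from -0.30 to 0.58.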
